A study of Mus musculus with 20 samples.

Results

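The tumours described here are 12 caecum tumours grown in mice from 3 LAKTP colorectal cancer organoid lines, 6 from mice given galunisertib and 6 controls. Membership follows the labels, organoid 68, 93 or 140 and genotype LAKTP, which holds for 12 of the 20 tumours of the series. Each line gave 2 control and 2 treated tumours, which the design text calls biological replicates. The lines are called MTO68, MTO93 and MTO140 below, and the other 8 tumours of the series came from a LAKP and a LAKT line.

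Transforming growth factor beta (TGF-beta) is a secreted signal that binds a type II receptor, which then activates the kinase of the type I receptor. That kinase phosphorylates SMAD2 and SMAD3, which enter the nucleus with SMAD4 and act on target genes. In fibroblasts and smooth muscle cells the pathway is known for raising the genes of collagens, elastin, fibronectin and the contractile apparatus. Galunisertib is a small molecule that blocks the type I receptor kinase, so it acts on any cell of the tumour that can still signal, including the cells of the host. LAKTP tumours are known for a lesion of the type II receptor in their epithelial cells, while the host stroma keeps its own receptor, so the receptor's level in whole tumours checks nothing about the label.

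Galunisertib was given by gavage at 10 mg, 2 times a day, from day 11 until the mice were killed at 5 weeks. The control treatment is labelled Con and is not described further. MTO140 came from a liver metastasis-derived culture by its label (LiM) and its organoids were injected under the serosa of the caecum. MTO68 and MTO93 are labelled parental, were first grown under the skin, and were then transplanted as tumour pieces onto the caecum tip. The host mice were C57BL/6J and syngeneic to the organoids. Each tumour is 1 array of RNA from whole tumour fragments, so tumour cells and host stroma were measured together. In such bulk samples, fewer cells of a type and less RNA per cell cannot be told apart. Each line also filled a strip of its own, and the effects of line and strip cannot be told apart, but both arms of a line shared its strip. The genotype letters are not explained in the labels, and each line stands for itself, not for its genotype.

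Epithelial genes were bright in all 12 tumours, as the label of colorectal tumour tissue implies. The mean log2 level of the 16 epithelial adhesion and keratin genes lay between 8.45 and 9.85 in the controls and between 9.01 and 9.87 in the treated tumours. Array medians lay between 4.93 and 5.10 on the log2 scale. The second control array of MTO68 stood apart: the SD of its values was 1.47, against 1.76 to 1.82 on the other MTO68 arrays. That SD lies close to the 1.52 to 1.60 of the MTO93 arrays, whereas the MTO140 arrays spanned 1.66 to 1.83 and the 8 LAKP and LAKT arrays 1.46 to 1.72. On this array the mean of the hybridisation controls was 10.2, against 8.62 to 10.15 on the other LAKTP arrays. A LAKT control reached 10.4, so this value was not unusual in the series. The first principal component of the values, centred within lines, held 56.4% of their variance with this array at one end. The SD of treated arrays exceeded that of controls by 0.06 on average, for which an exact permutation test within lines (two-sided) gave p = 0.472, with 0.00926 the smallest p it allows. Results below are given with and without this array.

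Across all 3 lines and 12 arrays, no gene passed the test for a shared difference. Of 15398 genes tested, 0 were called at an adjusted p under 0.05 (0%, limma with line as block, Benjamini-Hochberg adjustment), and 817 had an unadjusted p under 0.05. The same fit without the second MTO68 control called 68 genes, all of them lower in treated tumours (0.442% of genes tested), with 943 unadjusted p-values under 0.05. The plot of genes called under each setting shows how the count moved: 11 lower genes after quantile normalization, 93 lower and 7 higher with array weights, and 75 lower with the array SD as a covariate. Leaving out any other array called 0 genes.

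**Figure D1:**
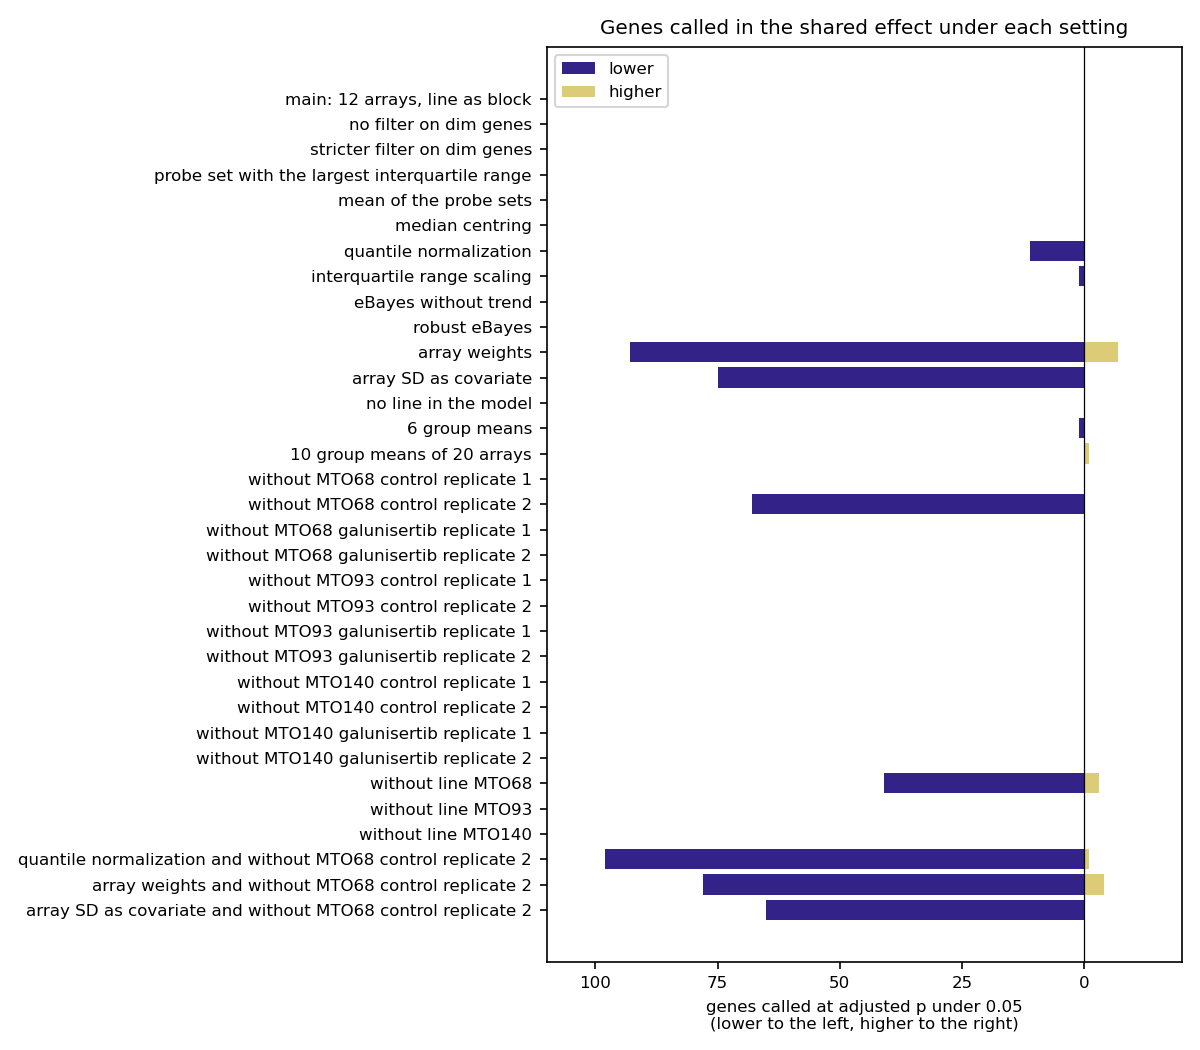
Bars show the number of genes called at an adjusted p under 0.05 in the fit shared by the 3 lines, lower genes to the left (dark) and higher genes to the right (light), for each setting on the vertical axis. The main fit of 12 arrays calls 0 genes, and leaving out the second MTO68 control calls 68, all lower.

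The 12 lower genes of smallest p in the 12-array fit were taken from genes with a lower treated mean in each line. Their agreement among lines was therefore set by the choice. None of these passed the adjusted test with 12 arrays. Eln encodes elastin, the core of elastic fibres. It read 10.23 and 8.00 in the MTO68 controls against 7.81 and 7.46 in the treated tumours, 9.67 and 9.64 against 7.57 and 7.68 in MTO93, and 10.75 and 9.55 against 8.29 and 8.49 in MTO140. Treated values lay below control values in each line, and the lower MTO68 control was close to its treated pair. The shared difference was -1.76 on the log2 scale (SE 0.33, adjusted p = 0.261), which is 3.38 times more in controls. Without the second MTO68 control it was -2.07 (SE 0.21, adjusted p = 0.00658), or 4.20 times, and over 32 alternatives its adjusted p ran from 0.000710 to 0.817.

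Several of these genes separated the arms without leaving out any array. Fstl3 encodes a secreted antagonist of activin and is a known TGF-beta target. Its levels were 7.55 and 7.32 against 6.57 and 6.98 in MTO68, 7.95 and 7.66 against 7.01 and 7.14 in MTO93, and 8.16 and 8.27 against 7.22 and 7.14 in MTO140, controls first. All 6 treated tumours lay below all 6 controls, and the difference was -0.80 (SE 0.14, adjusted p = 0.261, and 0.0135 without the second MTO68 control, with 0.00646 to 0.817 over the alternatives). Such complete separation was found in 26 genes (0.169%). Among them, Igfbp2, a carrier of insulin-like growth factors, differed by -1.13 (SE 0.21). Gpr153, an orphan receptor, differed by -0.52 (SE 0.09), Itga5, the alpha subunit of the fibronectin receptor, by -0.62 (SE 0.12), and Cd248, a surface protein of fibroblasts and pericytes, by -0.62 (SE 0.12). Each of these 4 had an adjusted p of 0.261 with 12 arrays and fell in the fit without the second MTO68 control.

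The other genes at this end of the ranking belonged to several groups. Adam12, a metalloprotease of the membrane that responds to TGF-beta, differed by -0.9997 (SE 0.17), with controls at 6.71 to 7.48 and treated tumours at 5.10 to 6.91. Its relative Adam19 differed by -0.78 (SE 0.15). Rgs4, a regulator of G protein signalling, differed by -0.58 (SE 0.11), Map3k7cl by -0.56 (SE 0.10) and the adenylate kinase gene Ak1 by -0.69 (SE 0.13). Serping1, the inhibitor of complement C1, differed by -0.81 (SE 0.15). In each of these 6 genes treated values lay below control values within every line, though not across lines, and separation within every line held for 145 of all genes (0.942%). The difference was lower in 3 of 3 lines for 1384 genes (8.99%).

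No gene rose in the shared fit with 12 or with 11 arrays. The 12 higher genes of smallest p were taken from genes with a higher treated mean in each line, and their differences were moderate. They kept their sign in the 32 alternatives, which that choice favours. Fam3b, a cytokine-like gene of secretory epithelium, differed by 1.30 (SE 0.33, adjusted p = 0.469). Its controls lay between 4.89 and 8.13 and its treated tumours between 6.96 and 8.88. Sowahb differed by 0.67 (SE 0.15), the ubiquitin ligase gene Rchy1 by 0.57 (SE 0.13) and Ppif, which encodes mitochondrial cyclophilin D, by 0.56 (SE 0.15). Upp1, which splits uridine, differed by 0.63 (SE 0.19), Cox6a1, a subunit of cytochrome oxidase, by 0.51 (SE 0.15), the interferon-induced Oasl1 by 0.52 (SE 0.15) and the lymphoid regulator Ikzf1 by 0.39 (SE 0.11). The differences of all 12 genes were smaller without the second MTO68 control, with Fam3b at 1.02, Cox6a1 at 0.38 and Oasl1 at 0.42. Treated values lay above control values in every line for 90 of all genes (0.584%), and the mean was higher in 3 of 3 lines for 2067 (13.4%).

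The 68 genes that fell without the second MTO68 control ran from -2.13 (Lum) to -0.47 (Fgd5), with a median of -1.12. With all 12 arrays the median of the same genes was -0.93 and their adjusted p-values lay between 0.261 and 0.877. Since this array decided the call, the count describes 11 tumours. In all 68 genes treated values lay below control values in each line among the 11 arrays. The genes were chosen on those arrays, where MTO68 has a single control, so this separation adds no support to the calls. Among the 12 arrays it held for 24 of 68. Only the second MTO68 control was new to that count, so the share over all genes (145, 0.942%) is not a like comparison. In MTO68 with both controls, 6 of the 68 had a higher mean in treated tumours. In MTO68 their median difference was -0.65, or -1.26 without the second control, -0.89 in MTO93 and -1.27 in MTO140. Of the 68, 40 belong to lists of matrix, TGF-beta and stromal genes used below. All lists together hold 478 of the 15398 genes tested. The lists were chosen with earlier results of these data known, so this overlap adds no support to the calls. Outside the lists, Ctla2a, a protease inhibitor gene, fell by 1.57 (SE 0.25) and Cyp1b1, a cytochrome of stromal cells, by 1.499 (SE 0.27).

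The plot of per-gene differences in pairs of lines shows that MTO93 and MTO140 shared a pattern over all genes that was weak or absent in MTO68. Over 15398 genes the differences of MTO93 and MTO140 had a Pearson r of 0.46 (Spearman rho 0.31), and 59.4% of genes had the same sign. The r of MTO68 with MTO93 was -0.08 and with MTO140 -0.07, or 0.10 and 0.09 without the second MTO68 control. In the same order rho was -0.15 and -0.14, or -0.002 and -0.043 without that array. The same sign was found in 42.6% and 42.8% of genes, or 49.4% and 47.5% without it. These are correlations across genes, which are not independent replicates, and lines share no tumours.

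**Figure D2:**
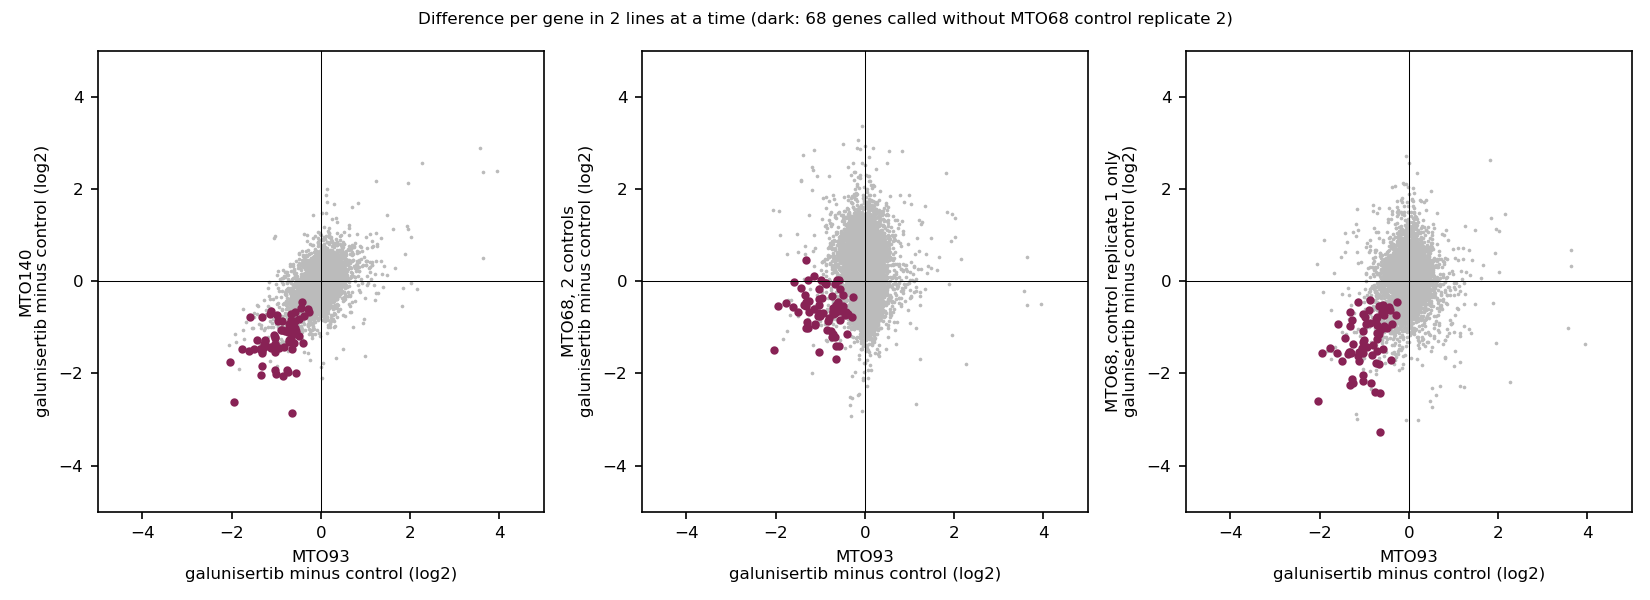
Each point is a gene, with its log2 difference (galunisertib minus control) in MTO93 on the horizontal axis and in MTO140, MTO68 with 2 controls, or MTO68 with control replicate 1 only on the vertical axis. The 68 dark genes, called without the second MTO68 control, lie in the lower left of the MTO140 panel, and 6 of them lie above 0 in MTO68 with 2 controls.

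The collagens of fibrils and microfibrils were lower in treated tumours as a group. All 13 collagen genes tested had a negative difference with 12 arrays, beside 47.4% of all genes, and their median was -0.85 beside 0.01 for all genes. Without the second MTO68 control 6 of the 13 fell and the median was -1.004, beside 43.5% of all genes lower and 0.442% called. Col1a1 encodes the main chain of type I collagen. It read 11.86 and 10.60 against 10.00 and 11.08 in MTO68, 11.75 and 11.57 against 10.51 and 10.75 in MTO93, and 11.81 and 11.67 against 10.55 and 10.19 in MTO140. The arms overlapped in MTO68 and did not overlap in the other lines. The difference was -1.03 (SE 0.23, adjusted p = 0.303), and -1.23 (SE 0.17, adjusted p = 0.0114) without the second MTO68 control, with 0.00646 to 0.817 over the alternatives.

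Type III, VI and VIII collagens followed the same order. Col3a1 read 11.92 and 10.92 against 10.64 and 11.59 in MTO68, 11.71 and 11.84 against 10.99 and 11.10 in MTO93, and 12.01 and 11.95 against 10.87 and 10.87 in MTO140. Col6a1 fell by 1.40 without the second MTO68 control (SE 0.19) and Col8a1 fell by 1.06 (SE 0.15). Col8a1 was separated in each line even with 12 arrays, with controls at 7.19 to 8.39 and treated tumours at 6.85 to 7.35. Col5a1 and Col5a2, which set fibril width, also fell.

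Of 10 basement membrane genes, 9 were lower with 12 arrays (median -0.45, beside 47.4% of all genes lower), and 4 of 10 fell with 11 (median -0.63, beside 0.442% of all genes called). Col15a1 fell by 1.54 (SE 0.19), Sparc, a collagen-binding glycoprotein, by 0.91 (SE 0.11), and Col4a1 by 0.81 (SE 0.13), all without the second MTO68 control. Col4a1, the core chain of the basement membrane, read 10.77 and 9.62 in the MTO68 controls against 10.24 and 10.40 treated, so the 2 controls lay on either side of the treated pair. In MTO93 the same gene was 10.79 and 10.42 against 9.42 and 9.49, and in MTO140 it was 11.16 and 10.90 against 10.28 and 10.37.

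Elastic fibre genes, collagen crosslinking enzymes and small proteoglycans were lower too. Elastic fibre and microfibril genes were lower in 11 of 12 with 12 arrays (median -0.52), and 3 of 12 fell with 11 arrays. Crosslinking and processing genes were lower in 13 of 13 (median -0.53), and 5 fell with 11 arrays. Small leucine-rich proteoglycans were lower in 7 of 8 (median -0.58), and 2 fell. Over all genes 47.4% were lower with 12 arrays and 0.442% called with 11. Lox, which crosslinks collagen and elastin, read 8.80 and 6.80 against 6.65 and 7.87 in MTO68, 8.42 and 8.36 against 6.93 and 7.22 in MTO93, and 9.18 and 9.19 against 7.44 and 7.27 in MTO140. The lines MTO93 and MTO140 were clear of overlap, and the second MTO68 control lay between its treated tumours. The 11-array difference of Lox was -1.56 (SE 0.20, adjusted p = 0.00968, with 0.00527 to 1.000 over the alternatives).

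Further members of these lists gave similar sizes. Ltbp2, which binds elastic microfibrils, read 7.18 and 4.87 against 4.98 and 4.96 in MTO68, 5.89 and 6.07 against 4.93 and 5.31 in MTO93, and 7.31 and 6.77 against 5.29 and 4.70 in MTO140. It fell by 1.64 (SE 0.23) with 11 arrays. Plod2, a lysyl hydroxylase, fell by 1.46 (SE 0.26) and Loxl3 by 0.93 (SE 0.11). Bgn, the proteoglycan biglycan, fell by 1.19 (SE 0.14). Lum, the proteoglycan lumican, fell by 2.13 (SE 0.36), with MTO68 controls at 7.72 and 3.98 against 4.64 and 4.27 treated. Mfap5, a microfibril protein, fell by 1.61 (SE 0.27).

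Adhesive and matricellular genes had the most negative medians of these groups in MTO140 (-1.36) and with 11 arrays (-1.12). Of 12 tested, 12 were lower with 12 arrays (median -0.83), and 3 fell with 11, beside 47.4% lower and 0.442% called over all genes. Fn1, fibronectin, read 10.98 and 8.51 against 9.04 and 9.84 in MTO68, 10.62 and 10.03 against 8.80 and 9.18 in MTO93, and 10.65 and 10.61 against 8.77 and 8.42 in MTO140. Its second MTO68 control was the lowest tumour of that line. The difference was -1.22 (SE 0.40) with 12 arrays and -1.65 (SE 0.19, adjusted p = 0.00658, with 0.00435 to 1.000 over the alternatives) with 11. Mgp, matrix Gla protein, fell by 1.55 (SE 0.19) and Ccdc80, a matrix protein of adipose and stromal cells, by 1.62 (SE 0.21). Cthrc1, a marker of activated fibroblasts, differed by -0.82 (SE 0.20) and did not pass in either fit (adjusted p = 0.128 with 11 arrays).

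**Figure D3:**
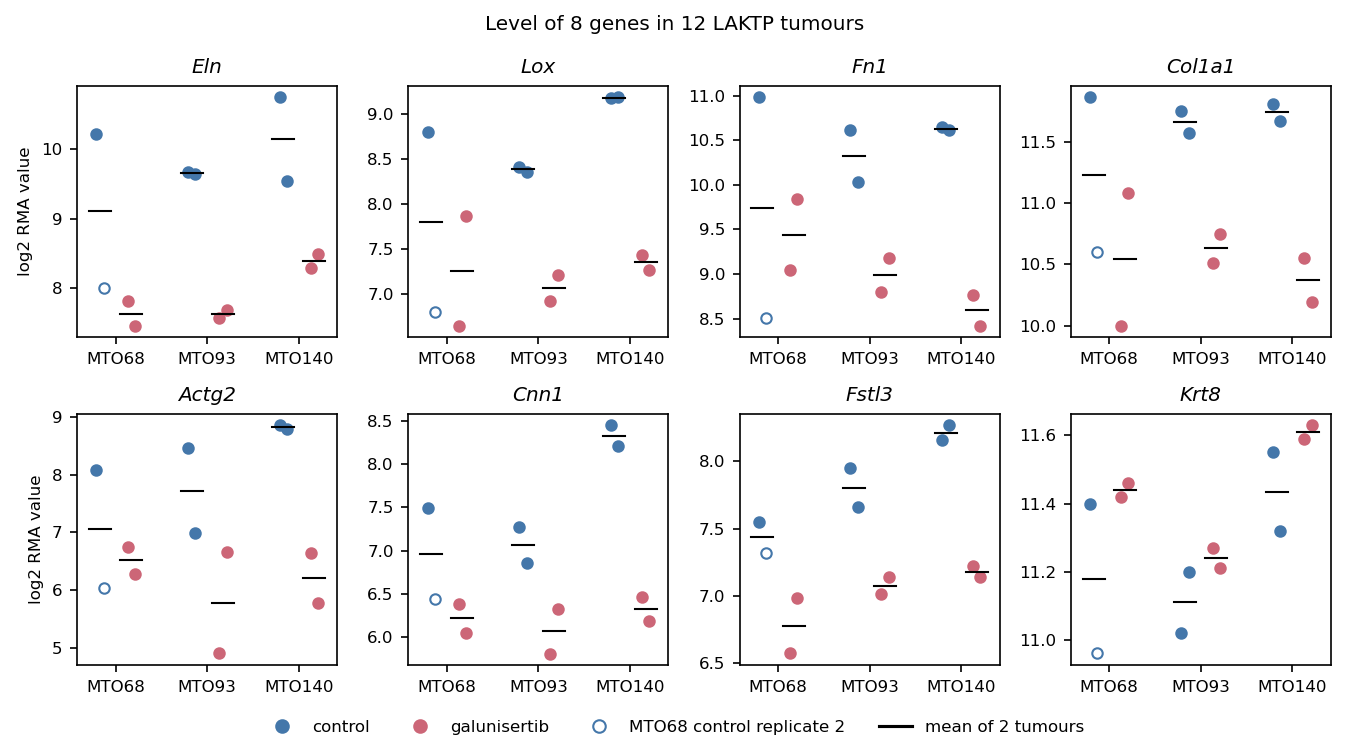
Points are single tumours (log2 level, vertical axis of each panel) by organoid line, controls to the left and treated tumours to the right, with the open circle for the second MTO68 control and bars for the mean of 2 tumours. In Eln, Lox, Fn1, Col1a1, Actg2, Cnn1 and Fstl3 the treated tumours of MTO93 and MTO140 lie below their controls, and Krt8 differs by 0.19 in the other direction without passing the test.

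TGF-beta pathway genes went both ways. Of 12 ligand, receptor and SMAD genes, 7 were lower with 12 arrays (median -0.09) and 8 with 11 (median -0.23). Among all genes 47.4% were lower with 12 arrays, and 43.5% were lower and 0.442% called with 11. Tgfb3, a ligand of stromal cells, was the member that fell with 11 arrays. Its levels were 6.79 and 4.70 against 4.86 and 5.60 in MTO68, 7.10 and 6.00 against 5.46 and 5.57 in MTO93, and 6.63 and 6.13 against 5.24 and 4.80 in MTO140. The 11-array difference was -1.29 (SE 0.21, adjusted p = 0.0303). Of the other ligands, Tgfb1 differed by -0.43 (SE 0.23) and Tgfb2 by 0.08 (SE 0.12).

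The receptors did not pass. Tgfbr1, the type I receptor whose kinase the drug blocks, differed by -0.37 (SE 0.30) with 12 arrays and -0.66 (SE 0.19) with 11. Tgfbr2, the type II receptor, ranged from 6.72 to 8.81 in controls and from 7.70 to 8.42 in treated tumours. Its difference was 0.02 (SE 0.32), and -0.29 (SE 0.19) with 11 arrays. The sign of Tgfbr2 turned in 13 of the alternatives, so no direction is given for it.

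Among 19 TGF-beta target and feedback genes, 14 were lower with 12 arrays (median -0.11) and 2 fell with 11, Tgfbi and Adam12. The shares over all genes were 47.4% lower with 12 arrays and 0.442% called with 11. Tgfbi, a secreted matrix protein, read 9.60 and 8.40 against 7.89 and 8.27 in MTO68, 9.16 and 8.54 against 7.50 and 7.96 in MTO93, and 9.14 and 8.84 against 8.20 and 8.50 in MTO140. Treated tumours were lower in each line, and the difference was -1.04 (SE 0.18, adjusted p = 0.0398) with 11 arrays. Ccn2, connective tissue growth factor, was also separated in each line. It read 7.10 and 5.74 against 4.85 and 5.45 in MTO68, 7.35 and 6.40 against 6.07 and 5.93 in MTO93, and 7.16 and 7.44 against 6.51 and 6.50 in MTO140. Its difference of -0.98 (SE 0.24) did not pass (adjusted p = 0.392, and 0.0713 with 11 arrays).

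Smad7, the inhibitory SMAD that the pathway itself induces, did not share a direction. It read 4.83 and 4.21 against 5.76 and 5.51 in MTO68, 4.59 and 4.50 against 4.27 and 4.11 in MTO93, and 5.38 and 4.61 against 4.78 and 4.71 in MTO140. Treated tumours were higher in MTO68, lower in MTO93 and within the control range in MTO140, and the adjusted p of a difference among lines was 0.681.

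In the activin and BMP list, 9 of 14 genes were lower with 12 arrays (median -0.06) and 2 fell with 11, both follistatin-like antagonists. Fstl1 fell by 1.29 (SE 0.17) with 11 arrays and Fstl3 by 0.85 (SE 0.12). Grem1, an antagonist of BMPs made by stromal cells, differed by -1.06 (SE 0.37) without passing in either fit, and its treated MTO68 tumours stood at 5.90 and 8.23, on either side of their controls at 8.03 and 7.01. Among metalloproteases and their inhibitors 13 of 14 were lower (median -0.35), and Mmp2 and Timp3 fell with 11 arrays. For both lists, the shares over all genes were 47.4% lower with 12 arrays and 0.442% called with 11. Mmp2, a gelatinase of stromal cells, fell by 1.64 (SE 0.24), and Timp3, an inhibitor bound to matrix, by 1.51 (SE 0.17).

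Contractile genes of smooth muscle were lower as a group. All 13 were lower with 12 arrays (median -0.80), and 8 of 13 fell with 11 (median -0.90), beside 47.4% of all genes lower with 12 arrays and 0.442% called with 11. Actg2, the actin of visceral smooth muscle, read 8.08 and 6.04 against 6.75 and 6.28 in MTO68, 8.46 and 6.99 against 4.90 and 6.66 in MTO93, and 8.86 and 8.80 against 6.64 and 5.77 in MTO140. MTO140 showed the widest gap and MTO68 overlapped. The difference was -1.71 (SE 0.47) with 12 arrays and -2.11 (SE 0.36, adjusted p = 0.0332, with 0.0270 to 0.999 over the alternatives) with 11.

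Calponin, desmin and the smooth muscle myosin chain were separated in each line with 12 arrays. Cnn1 read 7.49 and 6.44 against 6.38 and 6.05 in MTO68, 7.27 and 6.86 against 5.81 and 6.32 in MTO93, and 8.45 and 8.21 against 6.46 and 6.19 in MTO140. Its difference was -1.25 (SE 0.25, adjusted p = 0.261), and -1.44 (SE 0.19, adjusted p = 0.0105) with 11 arrays. Des, the muscle intermediate filament, differed by -0.80 (SE 0.16) and Myh11, the myosin chain, by -1.21 (SE 0.26) with 12 arrays. Tpm2, a tropomyosin, fell by 1.56 (SE 0.25) with 11 arrays. Cald1, which binds actin, fell by 1.30 (SE 0.14) with 11 arrays and was called in 9 of the 32 alternatives. Acta2, the actin of smooth muscle and of activated fibroblasts, differed by -0.80 (SE 0.26) and fell by 1.01 (SE 0.19, adjusted p = 0.0496) with 11 arrays, close to the threshold.

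The smooth muscle and matrix genes fell together, so the bases before their starts were read, as RefSeq gives them for mouse build GRCm38.p6. Of the 68 genes, 45 had a promoter in that table. The 250 bases before the start were searched on both strands for the CAGA box CAGACA, known as a SMAD-binding element, for CATTCC, known from TEAD factors, for the CArG box of serum response factor, and for the SMAD palindrome GTCTAGAC. CAGACA was in 13 of 45 (28.9%) beside 19.3% of 27025 promoters of all genes, and CATTCC in 9 (20%) beside 14.4%. The CArG box was searched only in its strict form, 2 C, then 6 A or T, then 2 G. That form was in 2 (4.44%, Myl9 and Meg3) beside 1.62%, and the palindrome in 0 beside 0.1998%. Near forms of the CArG box, such as ccctatatgg in Acta2, were not counted. No test was run on these shares, and a match is a description of letters, not a bound site. A collagen and 2 contractile genes are shown because they hold these motifs, with matches on either strand in capitals. Col3a1 is at chr1:45311288-45311537 on the plus strand, with CAGA boxes ending 234 and 60 bases before the start and the CATTCC match between them. Acta2 is at chr19:34255374-34255623 on the minus strand, and Myl9, a regulatory myosin light chain, is at chr2:156775214-156775463 on the plus strand with a CArG box.
Col3a1: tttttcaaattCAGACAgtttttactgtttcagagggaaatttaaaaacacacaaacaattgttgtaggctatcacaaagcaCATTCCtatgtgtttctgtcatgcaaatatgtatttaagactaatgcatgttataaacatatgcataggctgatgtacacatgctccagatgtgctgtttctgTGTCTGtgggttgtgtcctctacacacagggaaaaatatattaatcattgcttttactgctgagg
Acta2: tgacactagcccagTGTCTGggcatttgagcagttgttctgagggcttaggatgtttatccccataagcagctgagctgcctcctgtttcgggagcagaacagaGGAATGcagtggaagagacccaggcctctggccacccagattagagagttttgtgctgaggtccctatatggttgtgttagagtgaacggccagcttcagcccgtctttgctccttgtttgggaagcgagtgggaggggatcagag
Myl9: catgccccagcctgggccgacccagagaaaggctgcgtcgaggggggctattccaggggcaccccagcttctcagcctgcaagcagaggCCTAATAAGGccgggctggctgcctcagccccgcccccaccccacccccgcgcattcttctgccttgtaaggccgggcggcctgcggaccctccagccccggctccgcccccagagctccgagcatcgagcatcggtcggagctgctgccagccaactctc

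The Myl9 values went with the other contractile genes outside MTO68. They were 8.91 and 7.15 against 8.21 and 7.91 in MTO68, 9.15 and 8.34 against 6.97 and 7.97 in MTO93, and 9.70 and 9.49 against 8.27 and 8.18 in MTO140. Myl9 fell by 1.20 (SE 0.21) with 11 arrays.

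Fibroblast identity genes were lower in 13 of 14 with 12 arrays (median -0.28), beside 47.4% of all genes. Of these 14, 7 were lower in each line, the MTO93 median was 0.02, and 11 were lower with 11 arrays. With 12 arrays pericyte genes were lower in 6 of 8 (median -0.37) and endothelial genes in 13 of 14 (median -0.17). Cd248 was the member of the fibroblast list that fell with 11 arrays, beside 0.442% of all genes called. The pericyte and endothelial lists had 0 called. Pdgfrb, the receptor that marks pericytes and fibroblasts, read 6.93 and 6.87 against 5.84 and 6.08 in MTO68, 7.12 and 6.73 against 6.53 and 6.62 in MTO93, and 7.28 and 6.89 against 6.56 and 6.42 in MTO140. All 6 treated tumours lay below all 6 controls, yet the difference of -0.62 (SE 0.14) did not pass (adjusted p = 0.303, and 0.132 with 11 arrays).

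Prrx1, a transcription factor of fibroblasts, differed by -0.71 (SE 0.20) and Notch3, a receptor of mural cells, by -0.39 (SE 0.12). Kcnj8, a potassium channel gene of pericytes, differed by -0.58 (SE 0.17), with its widest gap in MTO140, at 5.15 and 5.32 against 4.02 and 3.94 treated. The endothelial gene Plvap differed by -0.25 (SE 0.08). None of these 4 passed with 12 or with 11 arrays. The mean log2 level of the fibroblast list was 5.37 to 5.96 in controls and 4.99 to 5.43 in treated tumours, and that of the pericyte list was 5.44 to 6.09 and 5.25 to 5.55. By this mean the treated tumours lay below the controls within each of the 3 lines for both lists. The median gene of the fibroblast list was not lower in MTO93 (0.02). The arms overlapped across lines only through the second MTO68 control (5.37 and 5.44). Without it, the lowest control was 5.45 for the fibroblast list and 5.58 for the pericyte list, above every treated tumour. The endothelial list spanned 5.98 to 6.96 in controls and 6.00 to 6.51 in treated tumours. The share of stromal cells in the matrix result was not tested.

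Growth factors of the stroma were mixed, with 9 of 16 lower (median -0.04), beside 47.4% of all genes lower with 12 arrays and 0.442% called with 11. Fgf2, basic fibroblast growth factor, read 5.18 and 4.29 against 3.96 and 4.12 in MTO68, 4.78 and 4.78 against 4.05 and 4.17 in MTO93, and 6.23 and 5.23 against 4.50 and 4.46 in MTO140. It was separated in each line and fell by 1.01 (SE 0.16, adjusted p = 0.0244) with 11 arrays. Pdgfb, a ligand of the pericyte receptor, differed by -0.69 (SE 0.14, adjusted p = 0.275, and 0.0511 with 11 arrays). Fgfr1, a receptor of fibroblast growth factors, differed by -1.06 (SE 0.36, adjusted p = 0.802, and 0.0847 with 11 arrays).

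**Figure D4:**
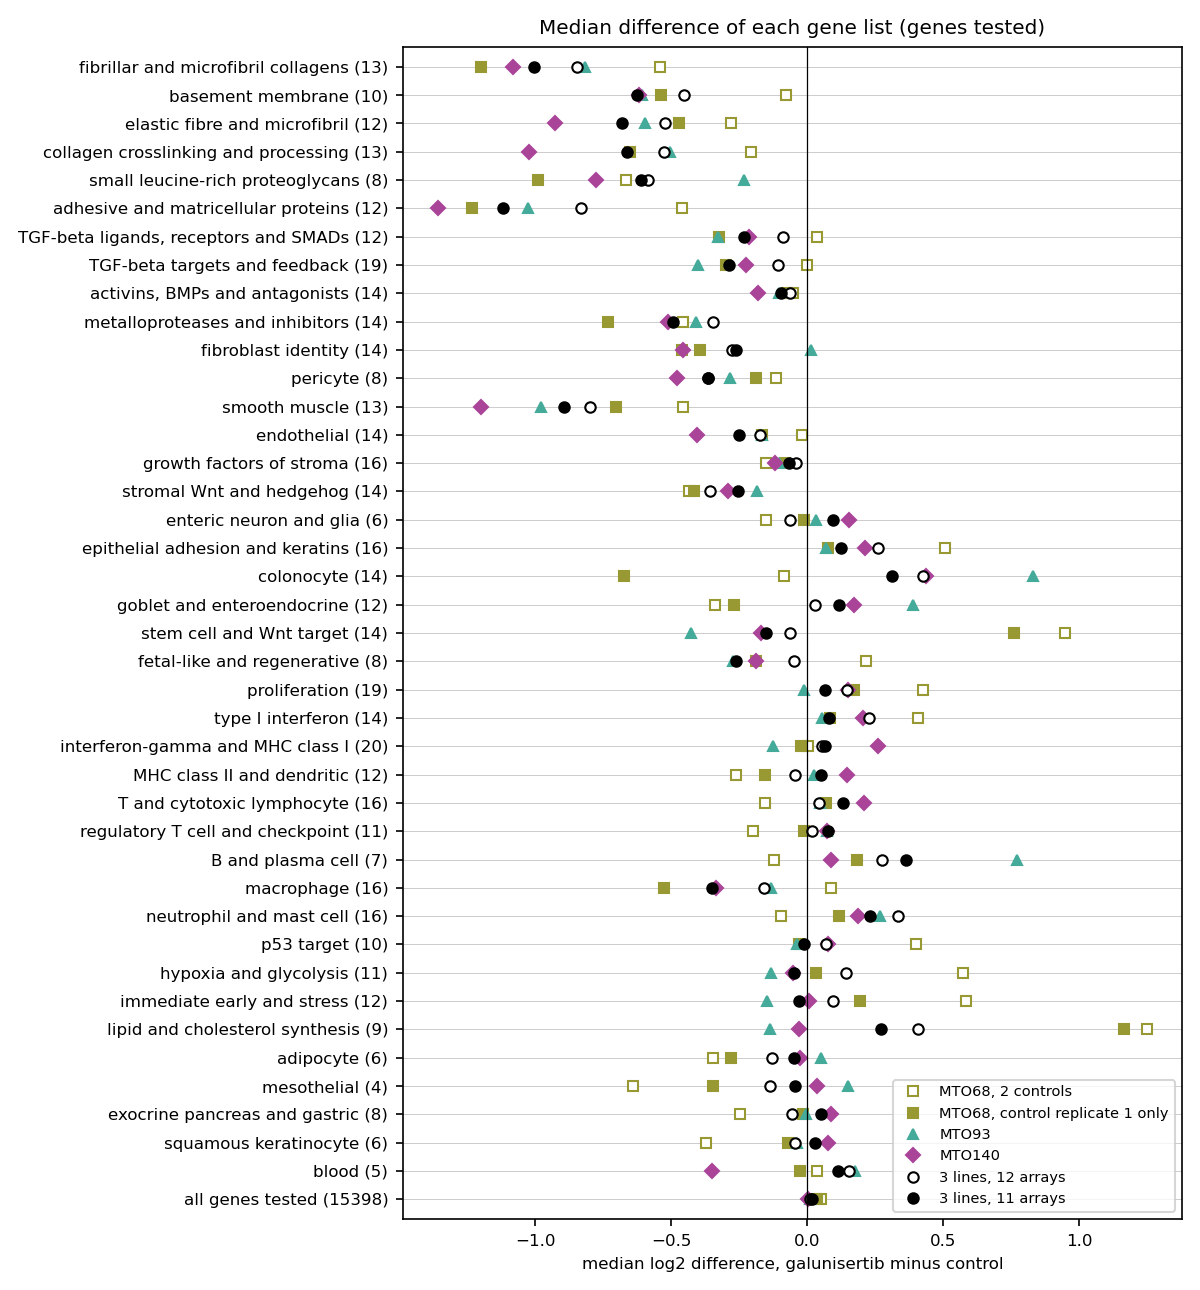
Points are the median log2 difference (galunisertib minus control) of the genes of each list, by line and for the 3 lines together with 12 or 11 arrays; the number of genes tested is in brackets. Collagen, adhesive and smooth muscle lists have medians of -0.80 or lower with 12 arrays, and all genes together have 0.01.

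No epithelial gene was called. All 16 epithelial adhesion and keratin genes were higher with 12 arrays (median 0.26), and 14 of 16 with 11 (median 0.12). The MTO68 median of this list was 0.51, or 0.08 without its second control. Over all genes 47.4% were lower with 12 arrays and 43.5% with 11. With 12 arrays and a stricter filter on dim genes, 39.8% were lower. Krt8, a keratin of simple epithelium, read 11.40 and 10.96 against 11.42 and 11.46 in MTO68, 11.02 and 11.20 against 11.27 and 11.21 in MTO93, and 11.55 and 11.32 against 11.59 and 11.63 in MTO140. Treated values were above control values in each line by a narrow margin, and the difference was 0.19 (SE 0.10, adjusted p = 0.877). Epcam, the epithelial adhesion molecule, differed by 0.17 (SE 0.12) and Vil1, the microvillus protein villin, by 0.46 (SE 0.19). The signs of Krt8 and Epcam turned after scaling by the interquartile range.

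The list medians of mature and stem epithelium varied between lines, but the test of a difference among lines called 0 genes. Colonocyte genes were higher in 14 of 14 with 12 arrays (median 0.43), beside 47.4% of all genes lower. Their medians were 0.83 in MTO93, 0.44 in MTO140 and -0.08 in MTO68, or -0.67 without its second control. The mean level of this list was 8.42 and 6.75 against 6.80 and 8.12 in MTO68, controls first. It was 7.37 and 8.84 against 8.81 and 9.03 in MTO93, so the arms overlapped in both lines. In MTO140 it was 9.65 and 9.23 against 9.84 and 10.165. Krt20, a keratin of mature colonocytes, ranged from 7.96 to 11.24 in controls and from 7.55 to 11.50 in treated tumours, a spread wider than its difference of 0.51 (SE 0.44). Lgr5, the intestinal stem cell marker, read 7.59 and 7.48 against 6.49 and 7.66 in MTO68, 7.18 and 6.11 against 5.06 and 5.61 in MTO93, and 6.56 and 5.32 against 4.85 and 4.48 in MTO140. It was lower and separated in MTO93 and MTO140, and its difference of -1.02 (SE 0.29) did not pass (adjusted p = 0.628). The stem cell and Wnt target list had medians of 0.95 in MTO68, -0.43 in MTO93 and -0.17 in MTO140.

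Proliferation, interferon and immune genes gave no call. Proliferation genes were higher in 18 of 19 (median 0.15), and in 16 of 19 without the second MTO68 control (median 0.06), with Mki67 at 0.25 (SE 0.18) and Rrm2, which makes deoxynucleotides, at 0.47 (SE 0.15). Type I interferon genes were higher in 13 of 14 (median 0.23), and in 10 of 14 without that array (median 0.08). Interferon-gamma and MHC class I genes were higher in 15 of 20 (median 0.06). T and cytotoxic lymphocyte genes were higher in 10 of 16 (median 0.04), and in 14 of 16 without that array (median 0.13). Cd8a differed by -0.17 (SE 0.19), the granzyme gene Gzmb by 0.33 (SE 0.18), Foxp3, the regulator of suppressive T cells, by 0.11 (SE 0.07) and Cd274, which encodes PD-L1, by -0.12 (SE 0.16). Cxcl9, a chemokine that attracts T cells, ranged from 6.29 to 10.18 in controls and from 7.95 to 10.20 in treated tumours, and differed by 0.54 (SE 0.49).

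No myeloid gene was called. Among all genes 47.4% were lower with 12 arrays and 43.5% without the second MTO68 control. Macrophage genes were lower in 11 of 16 with 12 arrays (median -0.16) and in 15 of 16 without the second MTO68 control (median -0.35). That array moved the MTO68 median of the list from -0.53 to 0.09. Trem2, a receptor of lipid-associated macrophages, was separated in each line at a difference of -0.35 (SE 0.09, adjusted p = 0.471), and Arg1, arginase, differed by -0.99 (SE 0.39). Neutrophil and mast cell genes were higher in 11 of 16 (median 0.34), and in 13 of 16 without that array (median 0.23). The neutrophil chemokine Cxcl2 differed by 1.34 (SE 0.55), Cxcl5 by 1.56 (SE 0.66) and the mast cell protease Cpa3 by 0.50 (SE 0.15), with adjusted p between 0.682 and 0.877. Cxcl5 read 4.75 and 4.04 against 8.86 and 7.20 in MTO93, while MTO140 overlapped at 9.10 and 6.58 against 7.08 and 9.60.

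Few effects passed the test in a single line. In MTO68, 27 genes rose (0.175%) and 1 fell, Spsb4 (-1.18). The widest rises were in Cadps, which primes vesicles for release (3.38), Pkd2l1, a calcium-permeable channel (2.94), Hs3st3b1, a heparan sulphate sulfotransferase (2.88), and Atp4a, the gastric proton pump (2.58). Cadps read 4.91 and 3.60 in the MTO68 controls against 8.18 and 7.09 treated, and 3.33 to 3.71 on all 8 arrays of the other lines. Pkd2l1 read 4.58 and 3.85 against 7.79 and 6.52, and 3.66 to 3.83 elsewhere. Outside MTO68 both genes lay under the filter level of 4.14 on every array, so they were tested only through the line where they are high. The test used a spread shared by all groups, including these dim ones, while tumours within the MTO68 arms varied more. The calls of both genes are therefore not firm. The count in MTO68 moved with the arrays: it was 15 without the second control (9 higher and 6 lower), 7204 without the first (4019 higher and 3185 lower), 113 without treated tumour 2, 12 without treated tumour 1, and 7 to 14 when 1 array of another line was left out. With 1 MTO68 tumour left out, its arm is a single tumour assumed to vary like the other groups. In MTO140, 1 gene passed (0.00649%): Igfbp2, at 7.08 and 7.05 against 5.09 and 5.04, fell by 2.00 (adjusted p = 0.0109). In MTO93 limma called 0 genes, with 135 unadjusted p-values under 0.05.

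In MTO68 the median of the lipid and cholesterol synthesis list was 1.25, beside -0.14 for MTO93 and -0.03 for MTO140. Sqle, squalene epoxidase, read 6.85 and 5.55 against 8.49 and 8.29 in MTO68, 5.79 and 5.55 against 5.24 and 5.60 in MTO93, and 7.75 and 6.48 against 7.82 and 6.90 in MTO140. Insig1, which holds back sterol synthesis, differed by 0.68 (SE 0.22) over the 3 lines. Mcpt1, a mast cell protease of mucosa, had 7.30 and 6.51 against 3.75 and 6.47 in MTO68, 8.08 and 6.34 against 10.15 and 8.79 in MTO93, and 7.94 and 6.62 against 9.90 and 9.79 in MTO140. Treated tumours were lower in MTO68 and higher in the other 2 lines.

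The test of a difference among the 3 lines called 0 genes with limma, with 881 unadjusted p-values under 0.05. Its smallest adjusted p was 0.343, in Tbccd1, Map2k6, Atp4a, Cadps and Pkd2l1, among others, each of them higher in treated MTO68 tumours. Tbccd1 differed by 1.56, 0.12 and -0.03 in MTO68, MTO93 and MTO140, and Atp4a by 2.58, -0.06 and 0.31. Fxyd6, a regulator of the sodium pump and next in rank (adjusted p = 0.392), differed by 1.87, -0.72 and -1.16. Map2k6, a kinase of the p38 pathway, read 4.69 and 4.59 in treated MTO68 tumours and lay under the filter level of 4.14 on the other 10 arrays, so it was tested only through the group where it is high. This count was 1378 without the first MTO68 control, 1 without the second, and 16 without treated MTO68 tumour 2.

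The LAKTP response was set against that of the 8 tumours of the LAKP and LAKT lines in a fit of all 20 arrays. Of 15554 genes, limma called 0 for a difference between the responses, and 267 had an unadjusted p under 0.05. The smallest p-values were those of Meis2, a homeobox factor (-0.91 in LAKTP and 0.11 in the others), and Map3k7cl (-0.56 and 0.32). Eln differed by -1.76 in LAKTP and -1.25 in the others, Lox by -1.23 and -1.12, and Fn1 by -1.22 and -0.72. Cnn1 differed by -1.25 and 0.28, an unadjusted p of 0.00785 that did not pass adjustment. The adjusted p of these 6 differences was 1.000.

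Probe sets without a single gene name gave the same picture. Of 12505 tested, limma called 0 with 12 arrays, and 21 were called without the second MTO68 control, all lower.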

How the data were processed

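RNA of 12 LAKTP tumours was measured on 1 microarray each. The deposited values are log2 expression values made by the authors with RMA and affy, per the submitters' processing notes. Their versions: not given in the sources used here. No further normalization was applied. Of 45141 probe sets, 28898 had a single gene symbol, 551 several and 15588 none. A gene was represented by the probe set of highest mean and kept where its value exceeded the 25th percentile (4.14) on at least 2 of 12 arrays, which left 15398 genes. Differences are galunisertib minus control with line as block (limma 3.58.1 in R 4.3.3, trend in eBayes, Benjamini-Hochberg adjustment, threshold 0.05); the interaction with line, each line alone and the contrast with the other genotypes were fitted likewise. Scripts were tested on simulated data. Tables and figures used Python 3.11.15, pandas 2.3.3, numpy 2.4.6 and matplotlib 3.10.9.

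Named genes are those of smallest p in each comparison, those of widest difference among genes called without the second MTO68 control, and genes set for each list. Genes named for the shared effect, with or without that array, also needed the same sign in each line. The tumours, lists and the array left out were chosen with earlier results of these data known. Replicate numbers follow the order of deposit and only name samples. The number of arrays limits the precision. Alternatives covered the filter, the choice of probe set, scaling, array weights, the model and leaving out arrays or lines. Promoter sequences are RefSeq's for GRCm38.p6. Some genes are not reported here.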

Additional observations from a re-analysis of the deposited data

Results flagged for a closer look

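Screening covered 107 genes named in the text or by a test, the lists and the array measures. Of 298 groups of 6 tumours (1 arm each), 28 (9.40%) had a tumour far from the others by Dixon's criterion for 6 samples. Chance flags about 1 in 20 groups, and the groups share tumours. All values here are log2 levels.

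The second MTO68 control was the far tumour among controls in Lox (6.80), Col1a1 (10.60), Col3a1 (10.92), Sparc (10.71), Bgn (8.48) and Fstl1 (8.84). It was also far in the mean level of the fibrillar collagen list (7.30). The first MTO68 control was far in Cadps (4.91), Pkd2l1 (4.58), Hs3st3b1 (5.73), Galnt18 (4.38), Ccdc88a (4.39) and the stromal growth factor list (6.11). The second MTO140 control was far in Tfap4 (4.26). The first MTO140 control was far in Cxcl2 (7.28) and in the neutrophil and mast cell list (6.26).

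Among treated tumours, MTO68 tumour 1 was far in Fstl3 (6.57), Krt20 (7.55), Plod2 (5.64), Bgn (8.10), Arg1 (7.39) and the metalloprotease list (5.88). MTO68 tumour 2 was far in the crosslinking list (6.71) and the adhesive list (7.25). MTO93 tumour 1 was far in Mgp (7.49), Myl9 (6.97) and the smooth muscle list (6.38). MTO140 tumour 2 was far in Ak1 (4.45).

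In 7 of the 107 genes, and in 2111 of all genes tested (13.7%), the treated tumours of one line all lay above their controls and those of another all lay below. Of the 7, Fxyd6, Cadps, Map2k6, Galnt18 and Ccdc88a were named for their small p in the test among lines. Their opposite directions follow in part from that choice. The difference of Smad7 was 1.12 in MTO68 and -0.36 in MTO93. Mcpt1 differed by -1.80 in MTO68 against 2.26 for MTO93 and 2.56 for MTO140. Fxyd6 differed by 1.87 in MTO68, -0.72 in MTO93 and -1.16 in MTO140, and Cadps by 3.38, -0.06 and -0.09. Map2k6 differed by 0.95, 0.11 and -0.11 in the same order, Galnt18 by 1.35 in MTO68 and -0.07 in MTO93, and Ccdc88a by 0.82 in MTO68 and -0.33 in MTO140. Outside MTO68, Cadps, Map2k6 and Galnt18 lay under the filter level of 4.14 on every array, as did Ccdc88a in MTO140. Their opposite signs there are differences between dim values. The limma test among lines passed in none of the 7, with adjusted p = 0.681 in Smad7 and Mcpt1, and it called 0 of all genes, with 881 unadjusted p-values under 0.05.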

How the results depend on the processing

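The count of shared calls, 0 with 12 arrays, was 11 after quantile normalization, 1 after interquartile range scaling, 100 with array weights, 75 with array SD as a covariate, 1 from 6 group means, 1 from the group means of 20 arrays and 44 without line MTO68. It ranged from 0 to 68 when 1 array was left out. With the second MTO68 control also left out, chosen after seeing the data, it was 99 (quantile), 82 (weights) and 65 (SD covariate). Calls among lines numbered 22 with 20 arrays and 0 to 1378 with 1 array left out. Calls in MTO68 numbered 322 with 20 arrays, 12 after quantile normalization and 7 to 7204 with 1 array left out. Calls in MTO140 numbered 0 after quantile normalization, 2 without a filter and 0 to 6 with 1 array left out. Unnamed probe sets gave 7 calls after quantile normalization and 0 to 21 with 1 array left out. The causes were not tested.

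Signs turned in a few genes. Tgfb2 was -0.064 without line MTO68 and ran from -0.018 to 0.15 with 1 array left out. Tgfbr2 was -0.10 as the mean of its probe sets, -0.0921 (quantile), -0.037 (interquartile range), -0.0706 (weights), -0.29 (SD covariate) and -0.33 without line MTO68. It was -0.30, -0.10 and -0.31 under quantile, weights and SD covariate without the second MTO68 control, and -0.29 to 0.22 with 1 array left out. Smad7 was -0.0656 (SD covariate), -0.30 without line MTO68, -0.036, -0.036 and -0.049 under those 3 combined settings, and -0.027 to 0.32 with 1 array left out. Cd8a was 0.026 without line MTO68, Cxcl9 -0.13 without line MTO140, and Epcam -0.0066 and Krt8 -0.0056 after interquartile range scaling. The 12 lower and 12 higher genes of smallest p kept their sign in every alternative run for them (32, or 31 for Map3k7cl, Ak1 and Itga5). These genes were chosen for the same sign in each line, and that choice favours a stable sign. No paired analysis was possible because the labels carry no replicate numbers.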
